A study of Mus musculus with 8 samples.

Results

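The question addressed here was how far the response of RAW264.7 macrophages to interleukin-13 (IL-13) and all-trans retinoic acid (ATRA) given together departed from the sum of the responses to each agent alone. For every gene and time, the departure was the log2 difference between cells given IL-13 with ATRA and cells given IL-13, minus the log2 difference between cells given ATRA and control cells. A departure of 0 means that the fold changes of both agents multiplied. A positive departure means that the combination stood above that expectation, and a negative departure that it stood below it. All 8 of 8 arrays of the series entered the calculation. Of 27342 genes named on the array, 15457 were fitted and 13687 were measured well above background on all 8 arrays. For 13669 of these no value was missing.

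Total RNA was labelled with Cy3 and hybridized to 1-colour Agilent mouse arrays. There were 4 groups of 2 arrays, 1 for each of 12 h and 24 h: IL-13 with ATRA (labelled as suppressed M2 polarization), IL-13 alone (labelled M2 macrophages), ATRA alone and an untreated control (both labelled unpolarized). RAW264.7 is a transformed mouse macrophage-like line, and all groups grew in the same serum-containing medium, with no dose given in the labels. The labels do not state whether each array came from its own culture. The spread behind every p-value and standard error comes from how the differences between treatments changed from 12 h to 24 h. No array repeats another, so real change with time cannot be told apart from noise, which may be technical. The number of arrays limits the precision.

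IL-13 binds a receptor that contains the IL-4 receptor alpha chain and activates the transcription factor STAT6, which drives the alternative, or M2, programme of macrophages. ATRA enters the nucleus and binds retinoic acid receptors, which pair with retinoid X receptors on DNA elements built from AGGTCA-type core sites. Both agents therefore act on transcription, and genes such as Irf4 and Klf4, which encode transcription factors, and Clec7a, which encodes the beta-glucan receptor dectin-1, are known in alternatively activated macrophages.

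The 8 macrophage markers examined, among them Adgre1, Csf1r and Cd68, were well above background on all 8 arrays. None of the 5 epithelial markers was well above background on any array, and 1 of 5 fibroblast markers (Col1a2) and 2 of 4 T cell markers (Cd3e and Cd4) were so on all 8. Of the B cell genes, Cd79a was well above background on 4 arrays and Ms4a1 on 1. The 75th percentile of the signal, by which each array was scaled, was 461 to 525 on the arrays of IL-13 with ATRA, 448 and 739 on those of IL-13, 515 to 575 on those of ATRA and 516 to 567 on those of control cells. The percentage of probes well above background was 54.1% to 61.4%. Each treatment held the same position on both slides, and the 12 h arrays shared one slide and the 24 h arrays the other, so treatment cannot be told apart from position, nor time from slide.

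Upstream sequences are shown for 4 of the genes the results turn on: Clec7a and Tbxas1, which both agents raised, Irf4, which IL-13 raised, and Klf4, which ATRA lowered. They come from RefSeq (GRCm38.p6), run 5′ to 3′ on the gene's strand over the 250 bases before the start site, and carry in capitals every match on either strand to the motifs searched. The Clec7a window is chr6:129472780-129473029 (minus strand), with 1 match to the STAT6 motif, TTC and GAA with 4 bases between them. The Tbxas1 window is chr6:38918736-38918985 (plus strand), with a STAT6 match followed by a match to the AP-1 motif TGANTCA. The Irf4 window is chr13:30748983-30749232 (plus strand) and the Klf4 window chr4:55532476-55532725 (minus strand). In these last windows the capitals mark the KLF-type motif CCNCNCCC, and neighbouring matches overlap in Klf4.
Clec7a: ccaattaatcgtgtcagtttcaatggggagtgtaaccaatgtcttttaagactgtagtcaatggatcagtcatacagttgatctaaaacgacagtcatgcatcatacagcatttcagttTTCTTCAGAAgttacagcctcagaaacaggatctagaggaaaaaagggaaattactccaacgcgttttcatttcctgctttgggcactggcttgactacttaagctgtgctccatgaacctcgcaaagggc
Tbxas1: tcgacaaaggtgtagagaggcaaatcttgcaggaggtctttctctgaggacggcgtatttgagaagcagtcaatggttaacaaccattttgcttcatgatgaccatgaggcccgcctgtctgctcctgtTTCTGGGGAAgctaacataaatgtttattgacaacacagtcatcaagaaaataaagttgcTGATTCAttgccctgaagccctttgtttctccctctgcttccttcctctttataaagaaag
Irf4: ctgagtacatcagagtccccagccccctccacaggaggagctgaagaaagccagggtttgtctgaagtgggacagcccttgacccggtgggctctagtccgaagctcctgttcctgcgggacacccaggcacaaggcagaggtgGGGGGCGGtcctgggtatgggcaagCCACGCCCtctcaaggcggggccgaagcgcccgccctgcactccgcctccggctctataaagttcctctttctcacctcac
Klf4: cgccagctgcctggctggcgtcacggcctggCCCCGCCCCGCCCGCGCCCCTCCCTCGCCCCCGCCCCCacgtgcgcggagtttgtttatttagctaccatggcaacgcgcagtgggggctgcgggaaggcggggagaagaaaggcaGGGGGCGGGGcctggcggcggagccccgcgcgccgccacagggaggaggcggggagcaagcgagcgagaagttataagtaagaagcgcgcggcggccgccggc

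Over all 32851 promoters of the RefSeq table, 5.85% held the STAT6 motif, 14% the retinoid core site AGGTCA, 6.75% the AP-1 motif, 2.98% the interferon element, GAAA repeated after 2 bases, and 45.9% the KLF-type motif. Of the 12 genes with a promoter entry and a negative departure of at least 2-fold at both times (below), 2 held the STAT6 motif (Clec7a and Tbxas1) and 6 the core site AGGTCA (Apoc2, C1qc, Ccl3, Ccl6, Il21r and Sphk1). Of the 8 such genes with a positive departure, 1 held the STAT6 motif (Lpin1) and 2 the core site (Epha2 and Lpin1). A match is only a run of letters in the window.

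Departures were small for most genes, and their median was -0.04 at 12 h and 0.01 at 24 h, with an SD over genes of 0.372 and 0.416. A departure of at least 2-fold (1 log2 unit) in the same direction at both times was found for 33 genes above additivity (0.241% of the 13669) and 20 genes below it (0.146%). At 1.5-fold the counts were 122 (0.893%) and 88 (0.644%), and 6 genes departed by 2-fold in opposite directions at the times (0.0439%). Of those below, 17 of 20 had a gene symbol, among them chemokines, complement subunits and a lectin. Of those above, 12 of 33 had a gene symbol and the others were unnamed transcripts. With limma and the time as a term, 0 of the 13687 measured genes passed an adjusted p of 0.05 (0%), and 315 had an unadjusted p under 0.05 (2.3%). The smallest limma adjusted p among them was 0.461, for Clec7a (departure -1.52). Over all 15457 fitted genes limma called 3 (0.0194%), none of them measured in every treatment. Departures below are therefore given as values with their spread and not as calls. In data simulated with limma's spread, 0.485% of genes without a departure passed the 2-fold rule at both times, in either direction. The count of 33 and 20 genes became 3 and 7 when the background was corrected by normexp in place of the scanner software's own correction. All 53 genes had the same sign at both times under it, which their choice by a 2-fold departure at both times favours. Among the 29 genes named by rule, the mean departure moved by more than 1.5 times with normexp in 18, and with a single array left out in 15.

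Agreement between the times was loose. The departures of the times, which share no array, were correlated across genes with r = 0.186 (Pearson) and rho = 0.166 (Spearman). Genes do not count as replicates. Of the 195 genes at least 2-fold above additivity at 12 h (1.43%), 16.9% were so at 24 h, and of the 353 at 24 h (2.58%), 9.35% were so at 12 h. For the 84 genes below additivity at 12 h (0.615%) that share was 23.8%, and for the 160 at 24 h (1.17%) it was 12.5%. The scanner software's own error model gave a single departure a median standard error of 0.289. Each of the 53 genes departed by at least 2.15 of its own such errors at 12 h and 2.13 at 24 h. These errors were 0.289 to 0.525 over the 53, which were chosen for departures of at least 1 log2 unit. The ratio therefore follows largely from the choice and is no support for the departures. At the edge of the 2-fold rule, Ccl3 (-1.0 at 12 h) and Lpin1 (1.01 at 24 h) lay just inside, and Il20rb (-0.99 at 12 h) and Trp53i11 (0.99 at 12 h) just outside.

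**Figure D1:**
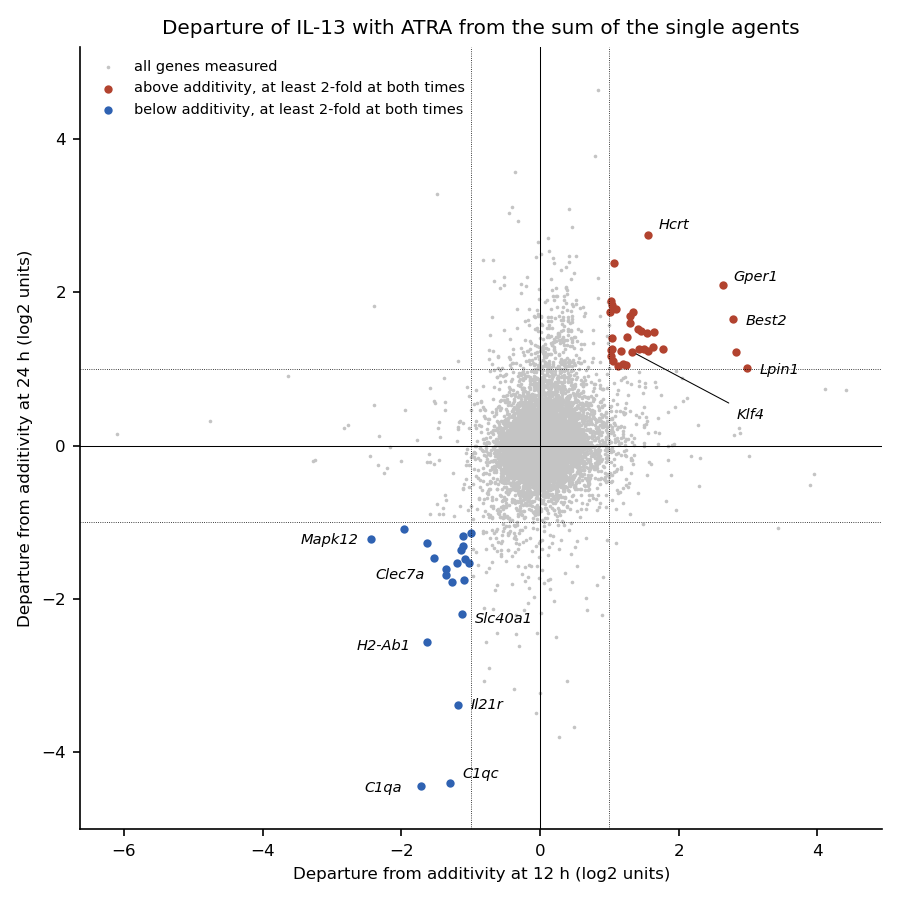
Departure from additivity of each of the 13669 genes at 12 h (horizontal axis) and 24 h (vertical axis), both in log2 units, with dotted lines at 1 log2 unit. The 33 genes at least 2-fold above additivity at both times lie at the upper right, the 20 genes below it at the lower left, and C1qa and C1qc lie lowest of the 20 at 24 h, at -4.44 and -4.39.

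Signal level differed between the 2-fold genes and the rest. The mean log2 signal had a median of 5.49 over the 33 genes above additivity and 6.49 over the 20 genes below it, against 9.67 over all genes. On at least 1 array, 15 of the 33 and 9 of the 20 came within 1 log2 unit of the lowest signal that was well above background there, as did 7.35% of all genes. For 7 of the 33, Gper1 and Best2 among them, the additive expectation at 12 h fell under that lowest signal on the array of IL-13 with ATRA, and a gene measured on that array could then only stand above its expectation. Of the 33, 22 had their lowest value on the 24 h IL-13 array, as had 17.8% of all genes, and 19 had their highest on the 12 h control array, as had 16.8% of all genes. The IL-13 arrays enter the departure with a minus sign and the control arrays with a plus sign, so a single low or high array moves it. The part of these arrays in the result was not tested.

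The most frequent shape below additivity was a gene higher with each agent alone. Of the 65 genes whose mean signal was above control by at least 1.5-fold with IL-13 and with ATRA, 10 were among the 20: C1qa, C1qc, Clec7a, Plk2, Tbxas1, Irf4, Il21r, Ccl3, Ccl4 and Ccl6. This grouping uses the arrays of the departure itself and only describes its shape. In bulk RNA, more cells of a type and more RNA per cell cannot be told apart.

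Clec7a, the dectin-1 gene, lies on chromosome 6, and its probe matched chr6:129411739-129411798 (minus strand, mm9 per the file headers). Its log2 signal was 15.01 at 12 h and 14.61 at 24 h with IL-13 and ATRA, 14.28 and 14.29 with IL-13, 14.33 and 14.21 with ATRA, and 12.24 and 12.19 in control cells. Each agent alone thus brought Clec7a to nearly one level, and the combination stood only 0.73 and 0.32 above IL-13 alone. By limma it rose with the combination (2.59 log2 units, adjusted p = 0.00297), with IL-13 (2.07, adjusted p = 0.0161) and with ATRA (2.05, adjusted p = 0.00945). The additive expectation was 16.37 and 16.30, and the departure was -1.35 and -1.69 (mean -1.52 ± 0.20, limma SE, n = 2 arrays per treatment). No spot was flagged as saturated on any array. The highest signal of any gene on an array was 18.46, and the highest expectation among the 20 genes was 16.95. Whether the probes of these genes, that of Clec7a among them, responded evenly up to their expectation was not tested.

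Tbxas1 encodes thromboxane A synthase, the enzyme that makes thromboxane from prostaglandin H. It measured 11.85 at 12 h and 11.69 at 24 h with IL-13 and ATRA, 8.76 and 9.18 with IL-13, 11.26 and 11.14 with ATRA, and 6.90 and 6.84 in control cells. The combination lay close to ATRA alone, and both lay far above IL-13 alone. Its departure was -1.26 and -1.78 (mean -1.52 ± 0.24), and another probe of the gene measured on all 8 arrays gave -1.13 and -1.65. By limma Tbxas1 rose with IL-13 (2.09, adjusted p = 0.0203), with ATRA (4.32, adjusted p = 0.00409) and with both (4.89, adjusted p = 0.0013). The combination exceeded IL-13 alone by 2.80 (adjusted p = 0.00665), while its difference of 0.57 from ATRA alone did not pass (adjusted p = 0.288).

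C1qa and C1qc encode chains of C1q, the recognition molecule of the classical complement pathway. C1qa was at 10.26 (12 h) and 11.38 (24 h) with IL-13 and ATRA, at 7.80 and 9.34 with IL-13, at 10.16 and 10.97 with ATRA, and at 5.98 and 4.49 in control cells. C1qc followed the same order, with 10.99 and 12.55, 8.73 and 10.5, 11.25 and 12.47, and 7.70 and 6.02 in those 4 groups. In both genes the combination matched ATRA alone within 0.5 log2 units, and IL-13 alone stood between ATRA and control. Departures were -1.71 and -4.44 for C1qa and -1.30 and -4.39 for C1qc. The gap between the times was large, and their limma standard errors were 1.02 and 1.21. At 24 h both genes were also lower in control cells than at 12 h, and control enters the departure directly. Without the 24 h control array the mean departures of -3.08 (C1qa) and -2.85 (C1qc) were -1.75 and -1.25, and that of C1qa was -1.81 with normexp.

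Chemokines formed the list with the lowest medians, -0.70 at 12 h and -1.14 at 24 h over its 11 measured members of 20. It was the only list of the 37 examined whose median was beyond 1.5-fold at both times. Of the 11, 8 had a negative and 0 a positive departure at both times, where 29.9% of all genes were negative and 24.8% positive. By limma, 6 of the 11 rose with the combination over control and 2 fell (over all genes 7.69% changed).

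Ccl6, a mouse CC chemokine, measured 10.63 and 10.31 at 12 h and 24 h with IL-13 and ATRA, 8.58 and 8.85 with IL-13, 10.33 and 10.58 with ATRA, and 7.19 and 7.65 in control cells. The level with both agents was that of ATRA alone, with a difference of 0.02 (limma adjusted p = 0.978). Its departure was -1.08 and -1.48. Ccl3 and Ccl4, which encode the macrophage inflammatory proteins 1-alpha and 1-beta, lay close to IL-13 alone with both agents. Ccl4 was at 14.69 and 13.98 with both agents, 14.98 and 14.23 with IL-13, 12.33 and 13.16 with ATRA, and 11.51 and 12.09 in control cells, a departure of -1.11 and -1.31. Ccl3 was at 14.71 and 14.21, 14.82 and 14.18, 13.27 and 13.98, and 12.37 and 12.81 in those groups, a departure of -1.0 and -1.14. The mean departures of Ccl4 (-1.21) and Ccl3 (-1.07) were -0.65 and -0.60 without the 24 h ATRA array. The combination did not pass limma against ATRA alone for Ccl4 (1.59, adjusted p = 0.268) or Ccl3 (0.84, adjusted p = 0.414). The combination of IL-13 and ATRA came within 0.4 log2 units of the stronger single agent in all 3 chemokines. Over control, limma called Ccl6 (3.05, adjusted p = 0.00406), Ccl4 (2.53, adjusted p = 0.0336) and Ccl3 (1.87, adjusted p = 0.0425) higher with the combination.

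Further chemokines, picked after their values were seen, were more negative at 24 h than at 12 h. Ccl24, an eosinophil-attracting chemokine of M2 cells, rose with the combination to 11.36 and 11.22, against 8.03 and 8.26 with IL-13, 8.83 and 10.18 with ATRA, and 5.15 and 4.76 in control cells. It stood 3.15 above IL-13 alone by limma (adjusted p = 0.0328), and its departure was -0.35 at 12 h and -2.46 at 24 h. Ccl2, a monocyte attractant, had departures of -0.92 and -1.38.

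Plk2, a stress-responsive polo-like kinase, and Il21r, the IL-21 receptor, were further genes higher with each agent on average. Plk2 was at 9.16 and 8.95 with IL-13 and ATRA, 7.75 and 7.54 with IL-13, 7.44 and 8.71 with ATRA, and 4.68 and 5.69 in control cells, with a departure of -1.35 and -1.61. Here the combination stood above IL-13 alone by 1.41 at 12 h and 1.42 at 24 h, and above ATRA alone by 1.72 and 0.24. Neither difference passed limma (1.41 over IL-13, adjusted p = 0.171, and 0.98 over ATRA, adjusted p = 0.411), and the mean departure of -1.48 was -0.57 with normexp and -0.94 without the 24 h ATRA array. Il21r was at 4.68 and 5.01 with both agents, 3.94 and 6.64 with IL-13, 6.24 and 6.13 with ATRA, and 4.31 and 4.38 in control cells. Of its IL-13 values only that at 24 h lay above control, and its departure of -1.19 and -3.38 carried a standard error of 0.99. Its mean of -2.28 was -0.98 without the 24 h IL-13 array, -3.58 without the 12 h IL-13 array and -1.02 with normexp.

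**Figure D2:**
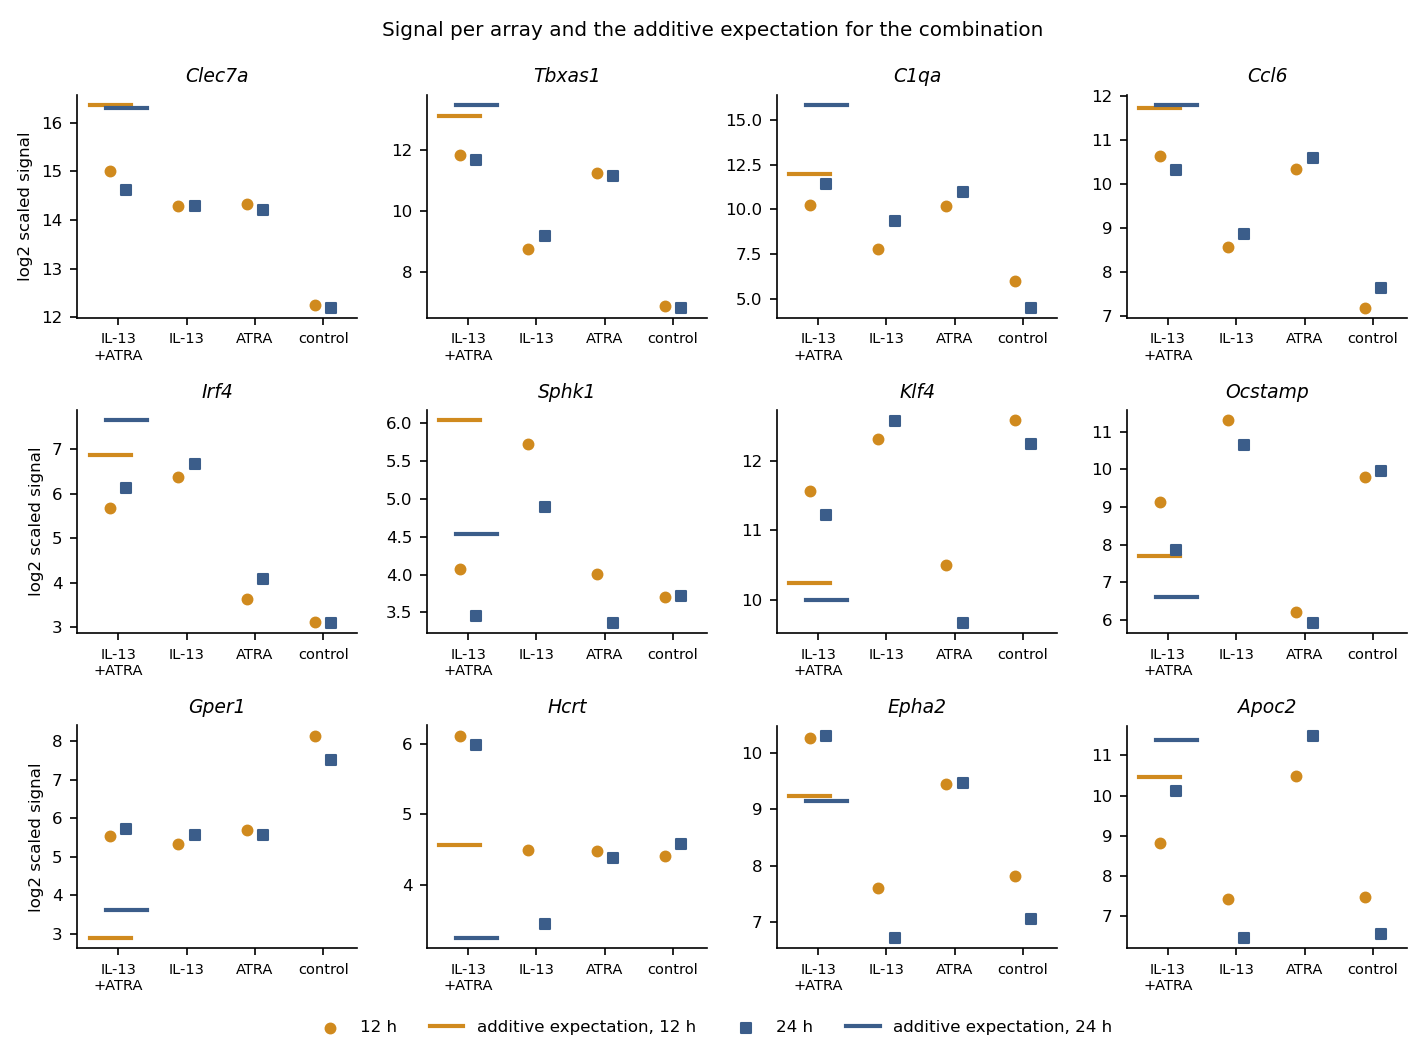
Log2 scaled signal of 12 genes on each array (vertical axis) for IL-13 with ATRA, IL-13, ATRA and control (horizontal axis), with circles for 12 h and squares for 24 h. The bars over IL-13 with ATRA mark the additive expectation, which lies above the measured combination in Clec7a (16.37 against 15.01 at 12 h) and below it in Klf4 (10.24 against 11.57 at 12 h).

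A second shape below additivity was a gene higher with IL-13 that stood lower when ATRA was added. Irf4, a transcription factor of M2 polarization, was counted above among the genes higher with each agent but also had this order. It was at 5.68 and 6.12 with IL-13 and ATRA, 6.36 and 6.66 with IL-13, 3.62 and 4.08 with ATRA, and 3.11 and 3.09 in control cells. ATRA alone left Irf4 above control at both times while the combination lay below IL-13 alone at both times. This gave a departure of -1.19 and -1.52 (mean -1.36 ± 0.22, or -0.45 with normexp). The control values of Irf4 were dim, near the lowest signal well above background on those arrays (3.05 and 2.97). Its ATRA values lay within 1 log2 unit of that limit on theirs (3.01 and 3.23). By limma Irf4 rose with IL-13 (3.41, adjusted p = 0.00577) and with the combination (2.80, adjusted p = 0.00302). The difference between them of -0.61 did not pass (adjusted p = 0.12).

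Sphk1 encodes sphingosine kinase 1, which makes the lipid mediator sphingosine 1-phosphate. Its signal was 4.08 and 3.45 with IL-13 and ATRA, 5.73 and 4.90 with IL-13, 4.01 and 3.36 with ATRA, and 3.70 and 3.72 in control cells. The combination lay within 0.4 log2 units of control at both times, and by limma Sphk1 fell against IL-13 alone (-1.55, adjusted p = 0.0367). Its mean departure was -1.52, and -0.31 with normexp. H2-Ab1, the beta chain of an MHC class II molecule, was at 3.94 and 4.58 with both agents, 5.03 and 6.68 with IL-13, 4.04 and 3.87 with ATRA, and 3.51 and 3.41 in control cells. Its departure of -1.62 and -2.55 rests on a dim signal, its mean of -2.09 was -0.58 with normexp and -1.33 without the 24 h IL-13 array, and 3 further probes of the gene passed background on 1 array each. Plxdc1, a plexin-domain membrane protein, was at 9.03 and 7.91, 9.83 and 9.05, 9.08 and 8.73, and 8.79 and 8.11 in the 4 groups, and departed by -1.09 and -1.76.

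The mirror image was a gene higher with ATRA that stood lower when IL-13 was added. Apoc2, an apolipoprotein that activates lipoprotein lipase, was at 8.82 and 10.13 with IL-13 and ATRA, 7.44 and 6.46 with IL-13, 10.5 and 11.49 with ATRA, and 7.48 and 6.55 in control cells. Apoc1, encoded in the same apolipoprotein cluster, was at 4.17 and 5.28, 4.32 and 4.45, 5.18 and 6.35, and 4.32 and 4.0. In both, the combination stood below ATRA alone at both times, with departures of -1.63 and -1.27 for Apoc2 and -1.02 and -1.53 for Apoc1. Slc40a1, which encodes the iron exporter ferroportin, was at 4.83 and 5.15 with both agents, 5.26 and 5.45 with IL-13, 6.04 and 6.87 with ATRA, and 5.36 and 4.96 in control cells. Mapk12, a p38-family kinase, was at 3.95 and 3.91, 4.65 and 4.25, 5.92 and 5.38, and 4.20 and 4.50. Slc40a1 departed by -1.12 and -2.20 and Mapk12 by -2.43 and -1.22, while another Mapk12 probe gave -1.10 and -0.69. With normexp the mean departures of Apoc1, Slc40a1 and Mapk12 (-1.27, -1.66 and -1.83) were -0.31, -0.66 and -0.48. That of Apoc2 (-1.45) was -1.41 with normexp and -0.64 without the 12 h array of both agents. In these 4 genes none of the tested effects of a single agent or of the combination passed limma's adjusted p of 0.05.

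Above additivity, the brightest of the named genes was Klf4, a Krüppel-like transcription factor of macrophage polarization, whose probe matched chr4:55540833-55540892 (minus strand, mm9). Klf4 was at 11.57 and 11.22 with IL-13 and ATRA, 12.32 and 12.58 with IL-13, 10.51 and 9.67 with ATRA, and 12.59 and 12.25 in control cells. ATRA alone lowered Klf4 (-2.33, limma adjusted p = 0.0279), and IL-13 alone differed from control by 0.03 (adjusted p = 0.953). With both agents the level lay between ATRA alone and control at both times, which gave a departure of 1.33 and 1.22 (mean 1.28 ± 0.36). Klf4 was the only one of the 10 measured Krüppel-like factors to pass the 2-fold rule, and the list's median was 0.15 at 12 h and 0.08 at 24 h.

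Ocstamp, a membrane protein required for fusion of osteoclast precursors, showed a like order from a gene that IL-13 alone placed above control. It was at 9.14 and 7.87 with IL-13 and ATRA, 11.30 and 10.66 with IL-13, 6.22 and 5.93 with ATRA, and 9.81 and 9.97 in control cells. By limma it fell with ATRA (-3.81, adjusted p = 0.0174) and fell with the combination against IL-13 alone (-2.47, adjusted p = 0.034). The departure was 1.43 and 1.26, and 0.61 and 0.39 by its other probe. The mean of 1.34 was 0.72 with normexp. Myc, picked after its values were seen, was at 8.38 and 7.05 with both agents, 9.95 and 9.14 with IL-13, 5.6 and 4.96 with ATRA, and 8.61 and 7.83 in control cells. Its departure was 1.43 and 0.78, and the combination exceeded ATRA alone by 2.44 in limma (adjusted p = 0.0221).

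Gper1, which encodes the G protein-coupled oestrogen receptor, was lowered by each agent to one level. Its signal was 5.52 and 5.72 with IL-13 and ATRA, 5.32 and 5.57 with IL-13, 5.70 and 5.55 with ATRA, and 8.14 and 7.5 in control cells. By limma it fell with IL-13 (-2.38, adjusted p = 0.0286), with ATRA (-2.20, adjusted p = 0.0271) and with the combination (-2.20, adjusted p = 0.0109). The combination differed by 0.17 from IL-13 alone (adjusted p = 0.739). The departure of 2.64 and 2.10 (mean 2.37 ± 0.33, or 1.46 with normexp) was the highest mean among the named genes above additivity, and at 12 h its expectation of 2.88 lay under the lowest signal well above background on that array, 3.41. Lpin1, a phosphatidate phosphatase, and Best2, a bestrophin channel, were, like it, below control by at least 1.5-fold with each agent on average. Lpin1 departed by 2.99 and 1.01 on the probe used, while its 3 other probes gave 0.00 to 0.86 at 12 h and 0.56 to 1.11 at 24 h. Best2 departed by 2.78 and 1.65, with a standard error of 1.01, and its control values were 7.5 at 12 h and 5.43 at 24 h. Its mean of 2.22 was 1.11 without the 12 h control array.

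Hcrt, the precursor of the orexin neuropeptides, was higher on the arrays of both agents than on any other. It was at 6.12 and 5.99 with IL-13 and ATRA, 4.49 and 3.44 with IL-13, 4.48 and 4.38 with ATRA, and 4.41 and 4.58 in control cells. It rose with the combination against control (1.56, limma adjusted p = 0.039) and against IL-13 alone (2.09, adjusted p = 0.0367), and the difference of 1.62 from ATRA alone did not pass (adjusted p = 0.138). Its departure was 1.56 and 2.74, its signal was dim on all arrays, and the mean of 2.15 was 0.94 with normexp. Epha2, an ephrin receptor tyrosine kinase, was at 10.26 and 10.31 with both agents, 7.61 and 6.71 with IL-13, 9.45 and 9.47 with ATRA, and 7.81 and 7.04 in control cells. Epha2 rose with ATRA (2.03, limma adjusted p = 0.0424) and with the combination (2.86, adjusted p = 0.00921), and its departure was 1.02 and 1.17. Over the settings run, its mean departure was 0.77 to 1.43. IL-13 alone stood slightly below control at both times, whereas the combination stood above ATRA alone.

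The other named genes above additivity had probes that disagreed or were lowest on the 24 h IL-13 array. Hcrt (3.44), Epha2 (6.71) and Best2 (4.03), described above, were also lowest on that array. Ndst1, a heparan sulphate-modifying enzyme, departed by 1.42 and 1.52 on the probe used and by -0.13 and -0.36 on another probe measured on all arrays. Its 2 further probes gave 0.08 and 0.79 (well above background on 3 arrays) and 0.58 and 0.74 (on 4 arrays). Arl4d, a small GTPase, departed by 1.5 and 1.26 on one probe and -0.09 and -0.13 on another, and Olfr456, an olfactory receptor, by 2.83 and 1.22 against -0.08 and -0.04. For these 3 genes the probes disagreed, and no level is drawn from them. Cdc42bpg, a kinase that acts downstream of Cdc42, departed by 1.05 and 1.11, and Pkd1, which encodes polycystin-1, by 1.04 and 1.26. Both were lowest on the 24 h IL-13 array, at 3.18 and 6.85. The mean departure of Cdc42bpg, 1.08, was 0.72 without that array and 0.38 with normexp, and that of Pkd1, 1.15, was 0.34 without that array and 1.97 without the 12 h IL-13 array.

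Interferon-stimulated genes, which carry the antiviral programme, lay above additivity as a list. Of 30 members 29 were measured, and 20 had a positive and 0 a negative departure at both times (24.8% and 29.9% of all genes). At 24 h all 29 were positive, against 51.8% of all genes, and at 12 h 20 were, against 43.1%. The list's median was 0.13 at 12 h and 0.74 at 24 h, and 0 members were 1.5-fold at both times. Against control, limma called 24 of the 29 lower with the combination (7.69% of all genes changed), 7 lower with ATRA (1.64%) and 2 lower with IL-13 (0.913%). None was called higher. Irf7, the factor that amplifies interferon production and was picked after its values were seen, was at 8.68 and 7.80 with both agents, 9.38 and 8.50 with IL-13, 8.58 and 7.86 with ATRA, and 9.61 and 10.31 in control cells. The combination differed from ATRA alone by less than 0.2 log2 units at both times. Control arrays held the highest value of all 29 members, and what they contribute to the departure was not tested.

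Sterol and fatty acid synthesis genes, the targets of the SREBP factors, lay on the same side with smaller values. Of 20 measured members 13 were positive and 0 negative at both times, against 24.8% and 29.9% of all genes. All 20 were positive at 24 h, against 51.8% of all genes. The list's median departure was 0.13 (12 h) and 0.33 (24 h). By limma 0 of the 20 changed with the combination, with IL-13 or with ATRA against control. Of all genes, 7.69%, 0.913% and 1.64% changed in those comparisons. Fasn, the fatty acid synthase gene and the highest of the list, was at 15.16 and 14.99 with IL-13 and ATRA, 14.58 and 11.48 with IL-13, 15.66 and 15.54 with ATRA, and 15.6 and 14.51 in control cells. Its 24 h departure of 2.48 went with the low 24 h IL-13 array, whose part in the result was not tested.

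C-type lectins, the family of pattern and endocytic receptors that holds Clec7a, lay below additivity. Of 12 measured members, 9 were negative and 1 positive at both times, against 29.9% and 24.8% of all genes. The list's median was -0.32 at 12 h and -0.89 at 24 h. Mrc1, the mannose receptor, named after its values were seen, was at 7.24 and 7.32 with IL-13 and ATRA, 8.38 and 9.48 with IL-13, 3.49 and 3.72 with ATRA, and 4.0 and 3.44 in control cells. It rose with the combination against control (3.56, limma adjusted p = 0.0114), and its departure was -0.62 and -2.44. Its signals with ATRA and in control cells were dim. Clec4a2, an inhibitory receptor, and Clec4b1, a lectin of the same gene cluster, fell with the combination against IL-13 alone by 2.05 and 2.11 in limma (adjusted p = 0.0151 and 0.0203), with departures of -0.58 and -0.89 and of -0.69 and -0.92.

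**Figure D3:**
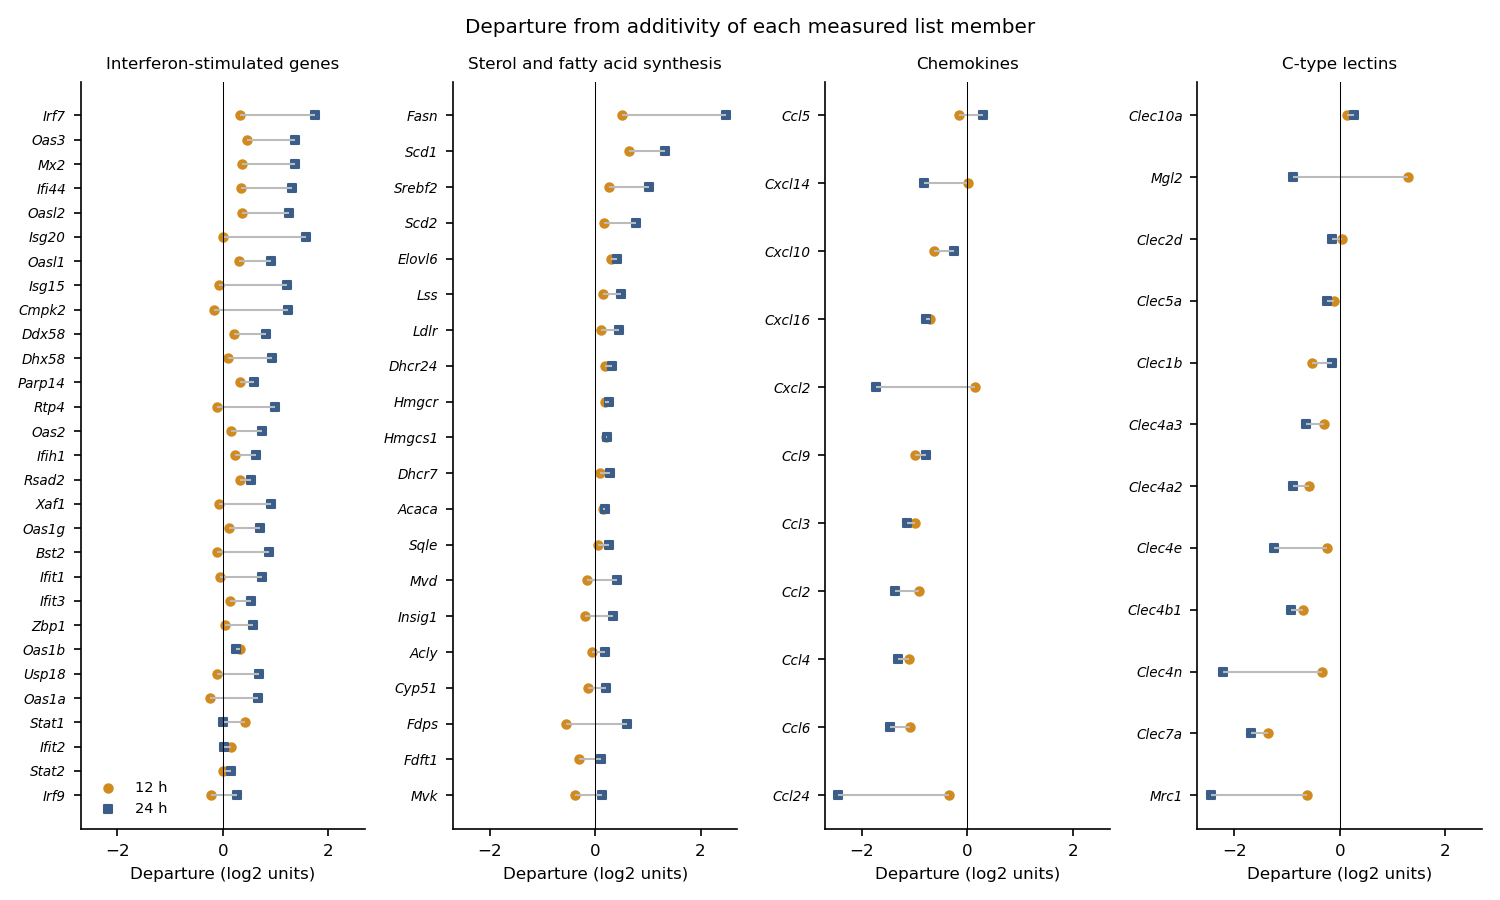
Departure from additivity in log2 units (horizontal axis) of each measured member of 4 lists (rows), with circles for 12 h and squares for 24 h. All 29 interferon-stimulated and all 20 sterol and fatty acid synthesis genes lie right of 0 at 24 h, while 10 of 11 chemokines and 11 of 12 C-type lectins lie left of it.

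M2 marker genes as a list had a median departure of -0.21 at 12 h and -0.89 at 24 h over 17 measured members of 26. Of the 17, 9 were negative and 5 positive at both times, against 29.9% and 24.8% of all genes. Clec7a and Irf4 passed the 2-fold rule below additivity and Klf4 above it. By limma 11 of the 17 rose with the combination over control (7.69% of all genes changed) and 9 rose with IL-13 over control (0.913%), and 0 fell in either. Between the combination and IL-13 alone, 3 members rose (Ccl24, Stab1 and Tgm2) and 1 fell (Myc), where 2.27% of all genes changed. Against ATRA alone 4 members of the list rose with the combination (0.256% of all genes changed). Batf3, a transcription factor of the list, was near additivity at 8.95 and 9.19 with both agents, 8.02 and 8.55 with IL-13, 5.2 and 5.24 with ATRA, and 4.02 and 4.44 in control cells, with departures of -0.25 and -0.17.

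Retinoid genes, which carry retinoic acid signalling and turnover, had a median of 0.46 at 12 h and 0.26 at 24 h over 11 measured members of 21. At both times 8 were positive and 1 negative, against 24.8% and 29.9% of all genes. The negative one was Dhrs3, a retinaldehyde reductase. Dhrs3 was at 14.18 and 14.10 with both agents, 12.76 and 12.38 with IL-13, 13.68 and 13.84 with ATRA, and 11.30 and 10.77 in control cells, and departed by -0.96 and -1.35. Rarb, the retinoic acid receptor that ATRA induces in many cells, was at 10.71 and 10.60 with both agents, 8.49 and 8.48 with IL-13, 10.62 and 10.25 with ATRA, and 8.47 and 8.77 in control cells. Its combination stood 2.17 above IL-13 alone by limma (adjusted p = 0.0139), with departures of 0.07 and 0.65.

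Over all 37 lists, 486 of 610 distinct genes were measured, of which 2 were 2-fold above additivity at both times (Klf4 and Ocstamp) and 12 below it. Over all measured genes those shares were 0.241% and 0.146%. The 2-fold members fell in 10 lists, and 27 lists had none. Cell cycle and DNA replication genes had 0 such members among 30, with medians of -0.09 and 0.03, and Toll-like receptor and NF-kB signalling genes had 0 among 24, with 16 negative and 2 positive at both times. Lysosomal genes counted 14 negative and 3 positive of 23, and purinergic and G protein-coupled receptor genes 11 negative and 0 positive of 16. Of all genes, 29.9% were negative and 24.8% positive at both times.

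**Figure D4:**
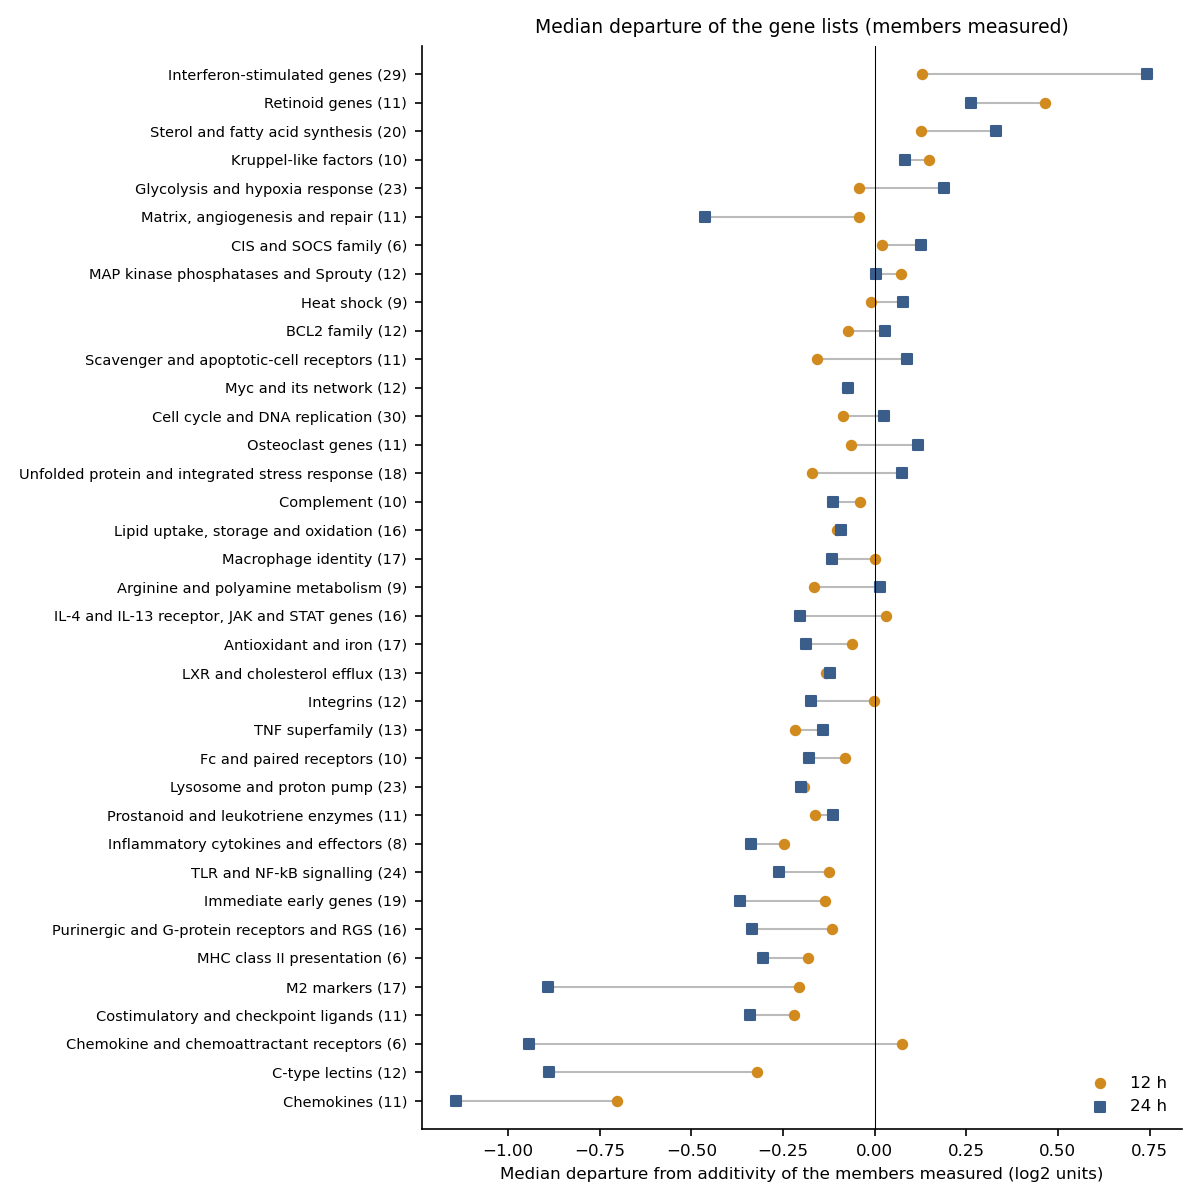
Median departure from additivity in log2 units (horizontal axis) of the measured members of each of the 37 lists (rows, with the number measured), with circles for 12 h and squares for 24 h. Chemokines lie lowest at both times, at -0.70 and -1.14, and interferon-stimulated genes highest at 24 h, at 0.74.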

How the data were processed

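Agilent Feature Extraction 10.7.1.1 produced the deposited processed signals, in the unit intensity, with background subtracted and spatial trends removed within each array, per the file headers, and with no normalization between arrays. The authors also deposited a table on a log2 scale, with column medians near 4.6 and a method not given in the sources used here, which served as an alternative. Its scale and direction were checked against each array's own signals (Spearman rho at least 0.999996), and its centring is unknown.

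Control spots and outlying spots were left out, repeated spots averaged (43379 spots, 41174 probes), and log2 signals scaled by each array's 75th percentile. Probes were named by RefSeq accession (27753), symbol or synonym, or the file's name (7428). A gene was represented by its brightest probe. A probe entered the fit when the software's flag put it well above background on both arrays of 1 or more treatments, and a gene was reported when its probe had that flag on all 8. limma 3.58.1 (R 4.3.3) fitted treatment and time, leaving 3 residual degrees of freedom, with Benjamini-Hochberg adjustment over 15457 genes and two-sided tests, and standard errors with ± are limma's. It was tested on simulated data, where it called 14% of departures of 1 log2 unit and 86% of departures of 2 log2 units. Figures were drawn with matplotlib 3.10.9.

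Genes named were up to 15 per direction under the 2-fold rule, the list members that passed it, Clec7a and Klf4, and up to 6 genes with opposite departures at the times, limited to gene symbols. Every other gene named was picked after its values were seen. The genes and lists were chosen with earlier results of these data known. Replicate numbers equal the time (12 h is 1, 24 h is 2), so the time term is also the replicate block. Alternatives covered background correction, scaling, filters, probe choice, the fit and each array left out.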

Additional observations from a re-analysis of the deposited data

Results flagged for a closer look

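For 5 named genes the departure was at least 2-fold at both times but in opposite directions, as it was for 6 of the 13669 measured genes (0.0439%). The departure of Htr1f, a serotonin receptor, was -2.39 at 12 h and 1.82 at 24 h, and that of Coq8a, a kinase of coenzyme Q synthesis, was -1.49 and 3.28. Tmem221, a transmembrane protein, had -1.18 and 1.1, Gpr173, an orphan receptor, 1.1 and -1.26, and Krt13, a keratin, 3.44 and -1.07. All 5 were dim on most arrays, and the difference between the times was not tested.

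Outside the genes measured on all 8 arrays, limma called 3 of the 15457 fitted genes (0.0194%). Each was well above background only on the arrays of 1 treatment and entered the fit through that treatment alone. The calls use signals not well above background in the other groups, so they are no support, and only bounds are given. The mean log2 signal of Mpdz, a scaffold protein, was 7.68 with IL-13 and ATRA, and it was not well above background on the arrays of IL-13 (1.1), ATRA (0.87) or control (0.88). Neither of the 2 further Mpdz probes passed background on any array. The combination was at least 23.5-fold over IL-13, 23.7-fold over ATRA and 25.5-fold over control, measured against the lowest signal well above background. Pax9, a developmental transcription factor, was well above background only with IL-13 and ATRA, at least 20.7-fold, 20.9-fold and 22.5-fold over those groups. The transcript 1700025L06Rik was well above background only with IL-13, and was at least 3.63-fold lower with IL-13 and ATRA. They were picked after their values were seen.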

How the results depend on the processing

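The count of departures called by limma was 0 in the 12 alternatives that kept all 8 arrays, and 0 to 1 with each array left out in turn; the single calls were CO430613 without the 24 h control array and ENSMUST00000143671 without the 24 h ATRA array. Without the replicate block, which is the time term, 0 genes were called and 221 had an unadjusted p under 0.05, against 315 with it. The 33 positive and 20 negative 2-fold departures became 3 and 7 with normexp background correction, 122 and 88 at 1.5-fold, and 2 and 2 at 3-fold. With an array left out only the other time remains, and the counts were then 195 to 353 and 84 to 160. Quantile normalization and the authors' table gave 26 and 24. Of the 33, 3 stayed 2-fold with normexp (Gper1, AK141415 and Klf4), and of the 20, 7 did (C1qa, C1qc, Clec7a, Apoc2, Ccl3, Ccl4 and Plxdc1). The cause was not tested. The 29 named genes kept their sign in all settings run, which follows largely from their choice by the same direction at both times. Their size was not kept. Sphk1 (-1.52) was at -0.31 and Irf4 (-1.36) at -0.45 with normexp, and Pkd1 (1.15) was at 0.34 without the 24 h IL-13 array. Leaving out an array leaves its treatment with 1 array, which is assumed to vary like the others. Dim signal and 2 arrays per treatment limit the precision.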
